A study of Homo sapiens with 6 samples.

Results

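The genes described here are 36 genes of the folding and quality-control machinery of the endoplasmic reticulum (ER): chaperones and co-chaperones, disulphide enzymes, components of ER-associated degradation, the sensors and transcription factors that control them, and a few parts of the translocation channel and vesicle coat. They were chosen by name from the annotation of the array. PDIA5 had no probe set that carried its symbol alone, and the other 35 were represented by the brightest probe set that did; all 35 were bright enough to be tested, among 13506 genes in all. The arrays came from A375, a human melanoma cell line driven by an activated BRAF kinase, in which EIF4B had been knocked out by CRISPR. Both lines compared carry that knockout: one then received LacZ by lentivirus (KO/LacZ, here called the knockout line) and the other the wild-type protein (KO/eIF4B, here called rescued), so neither is the untouched parental cell, and the labels do not say whether the knockout is 1 clone. eIF4B assists the helicase that unwinds messenger RNA for translation. Each line was given vehicle (DMSO), or vemurafenib, an inhibitor of mutant BRAF, at 10 µM for 6 h or 18 h. There was 1 array per combination, 6 in all, and no time is given for the vehicle arrays, so the effects of the drug and of time in culture cannot be told apart. Nothing in the labels says that the arrays came from separate cultures, so a p-value speaks for the scatter among these 6 and may be technical. In bulk RNA, fewer cells of a type and less RNA per cell cannot be told apart.

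As background, proteins that enter the ER are folded by the HSP70 chaperone HSPA5 (BiP) and its J-domain partners, by lectin chaperones that read the glycan, and by disulphide isomerases. Proteins that fail to fold are drawn back through the membrane and degraded, the process called ER-associated degradation. When unfolded proteins accumulate, the sensors ERN1 (IRE1) and ATF6 switch on chaperone and degradation genes through XBP1 and the cut form of ATF6, and a parallel sensor, PERK, slows translation and raises ATF4.

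These responses act through short promoter elements, which are shown here because the genes that carry them and the genes that do not can be followed separately in the data. RefSeq promoter windows (GRCh38.p14, 250 bases before to 50 after the annotated start) were found for 32 of the 36 genes. The ER stress element ERSE was searched as CCAAT and CCACG with 9 bases between them on either strand. It occurred in a window of 8 of those 32 genes (25%), against 25 of 27305 genes in the whole promoter table (0.0916%). The related ERSE-II, ATTGG and CCACG with 1 base between them, occurred in 3 of 32 (HERPUD1, HYOU1 and SDF2L1) and in 19 genes of the whole table (0.0696%). Both totals include the ER genes. Among the 10858 tested genes with a window the shares were 0.138% and 0.147%. Since ER stress responses act through these elements, a high share among ER genes is background and not a result of these data. The 8-base UPRE TGACGTGG was found for DNAJC10 and HYOU1, against 0.927% of all genes, and in HYOU1 it overlaps an ERSE-II. The 8-base element TTGCATCA, one form of the site bound by ATF4, was found for HERPUD1 alone among the 32, against 1.08% of all genes. A match describes these letters in these windows and is not evidence of binding. The elements of 7 genes on which the results turn are printed below, each on the coding strand of its gene, 5′ to 3′, with the element in capitals; where the element lies on the opposite strand it reads in reverse complement.
HSPA5, chr9:125241379-125241421, minus strand: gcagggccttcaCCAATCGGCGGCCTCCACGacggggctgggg
CALR, chr19:12938372-12938414, plus strand: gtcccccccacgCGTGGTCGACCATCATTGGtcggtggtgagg
CRELD2, chr22:49918542-49918584, plus strand: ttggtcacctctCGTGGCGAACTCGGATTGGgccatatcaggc
ERO1B, chr1:236282171-236282208, minus strand: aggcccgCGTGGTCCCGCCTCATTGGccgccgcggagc
XBP1, chr22:28800591-28800633, minus strand (the window of 1 of its 2 start sites): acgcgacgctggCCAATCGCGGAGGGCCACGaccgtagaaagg
SDF2L1, chr22:21642102-21642136, plus strand (ERSE-II): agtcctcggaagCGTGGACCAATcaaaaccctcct
HERPUD1, chr16:56931954-56932047, plus strand (the ATF4 element, then ERSE-II): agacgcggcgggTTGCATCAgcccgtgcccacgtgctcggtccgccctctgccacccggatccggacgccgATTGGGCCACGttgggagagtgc
CANX, HSP90B1 and PDIA6 also carried ERSE and HYOU1 carried ERSE-II.

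The arrays were comparable in signal, with medians over all probe sets but the array controls of 5.19 to 5.22 log2 units. The brightest EIF4B probe set read between 8.40 and 8.53 in the knockout line and between 10.07 and 10.28 in the rescued line, while the other 2 probe sets read 0.19 and 0.17 higher in the knockout line; the probe sets therefore disagree, and only the brightest follows the labels. All 13 of 13 ERK output genes listed as a check on the drug were lower at both times. Of 6 melanoma and pigment cell markers with a probe set, SOX10 lay between 9.86 and 10.57 and MITF between 8.10 and 9.97, while PMEL (5.54 to 5.80), TYR (5.44 to 5.72) and MLANA (4.76 to 4.99) were dim on every array. Of 4 epithelial markers 1 reached 5 log2 units on any array, and the summed linear signal of the 4 stayed between 83.2 and 90.4; Of 3 blood cell markers with a probe set, PTPRC stayed at 2.92 to 3.17 and CD3E at 5.68 to 5.85, while LYZ lay between 6.06 and 7.15 and fell by 0.86 at 18 h (limma, adjusted p = 0.0013); their summed signal was 173.2 and 205.3 under vehicle and 127.8 and 134.1 at 18 h. The fibroblast markers LUM and DCN rose with the drug, by 2.49 and 1.78 at 18 h, so that the summed signal of the 4 fibroblast markers went from 395.2 and 494.9 under vehicle to 982.0 and 1269.7 at 18 h, while COL1A1 lay between 7.868 and 8.001 throughout; the part of this in the changes below was not tested.

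At 6 h of vemurafenib few of the ER genes had moved, and those that had were mostly lower. ERO1B, EDEM1, SELENOS, MANF, SDF2L1 and DNAJB9 fell, 6 of 35, and HERPUD1 alone rose; the median change of the 35 was 0.02 log2 units. Over all 13506 genes tested, 8.82% were lower and 7.34% higher at 6 h (limma with additive terms for line and treatment; adjusted p by Benjamini-Hochberg under 0.05), and the median change was 0.03. The 7 of 35 called therefore compare with 16.2% of all genes called in either direction.

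By 18 h the genes had split. The 11 of 35 that were lower included 4 of 7 genes of the BiP chaperone system, 2 of 3 in the group of HSP90 and the secreted stress factors, and degradation and oxidation genes, while the glycoprotein sensor UGGT1 and degradation genes such as OS9 and EDEM2 were among 7 that were higher. The median of the 35 was -0.09 and that of all genes 0.01. At this time 51.4% of all genes passed the threshold, 28.1% higher and 23.3% lower, so 18 of 35 called is the background share and the direction and size of single genes carry the information. Centring each array on its median over the 13506 tested genes lowered every 18 h change by 0.10. The median change of all genes then went from 0.01 to -0.09. The split of the ER genes was then 3 higher and 15 lower, and that of all called genes went from 54.7% to 41.8% higher. UGGT1, EDEM2 and OS9 were the 3 that stayed higher.

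**Figure D1:**
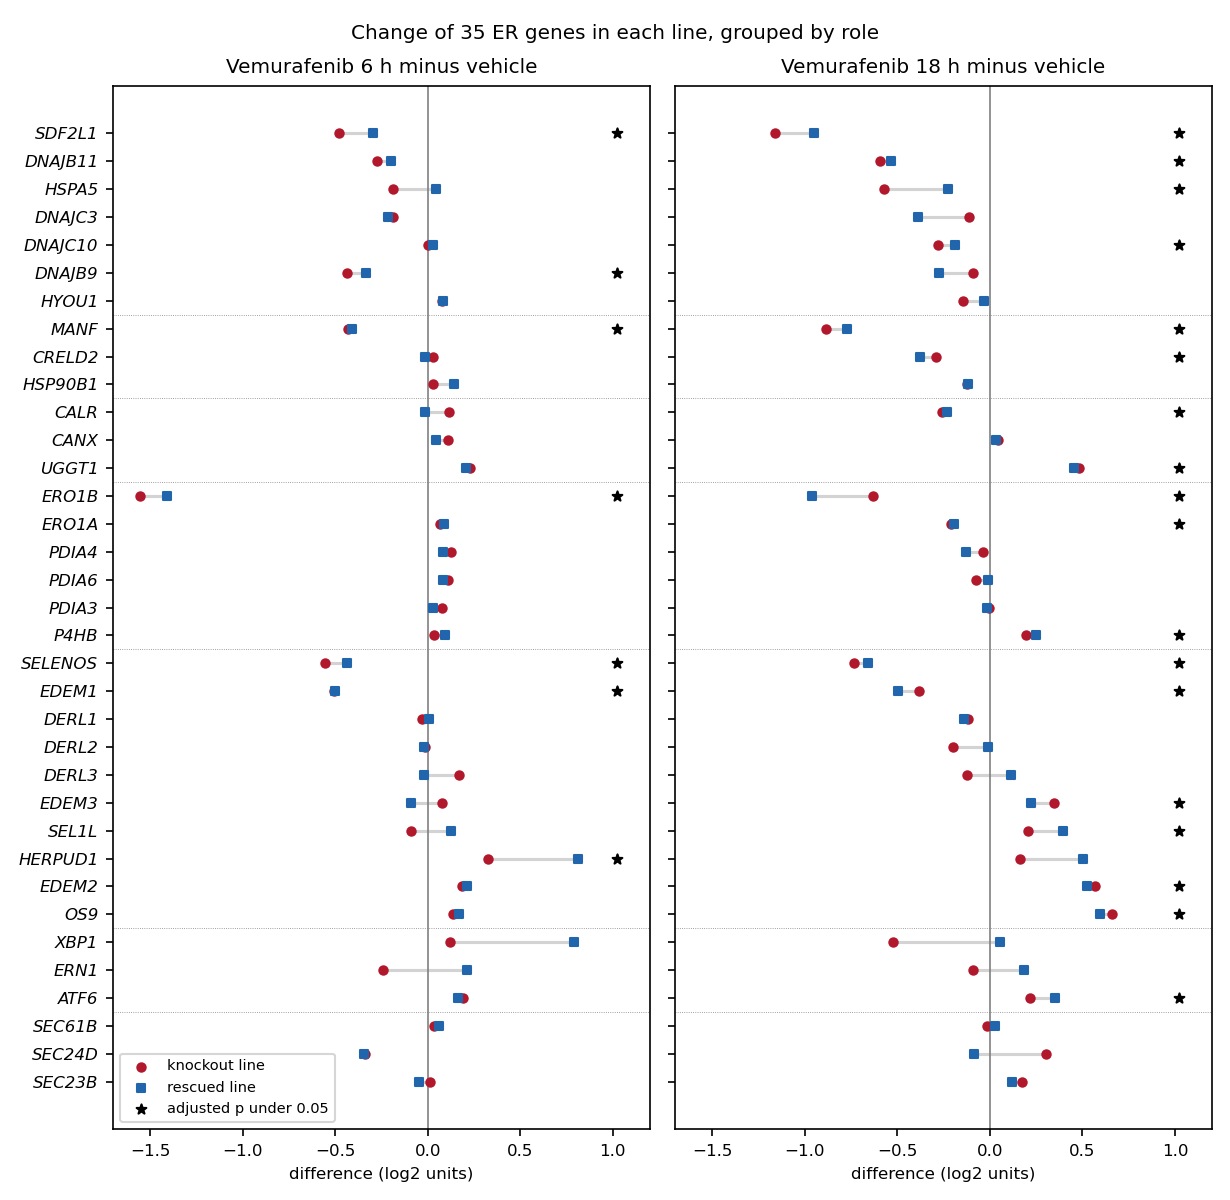
Change from vehicle in each line at 6 h (left) and 18 h (right) for the 35 ER genes, in log2 units, with 1 array against 1 per point; dotted lines separate the roles, and stars mark an adjusted p under 0.05 in the model over both lines. At 18 h every gene of the top block, the BiP system, lies below 0 in both lines, and OS9, EDEM2 and UGGT1 lie above 0 in both.

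Of the 7 listed genes of the BiP system, 4 fell by 18 h and none rose, beside 23.3% and 28.1% of all genes. The other 3 were below vehicle in both lines too. This covers the listed genes only. DNAJC1 (1.60), SIL1 (0.46) and SDF2 (0.35), outside the 35, were higher at 18 h. They belong to a list of 26 further folding enzymes, of which 10 rose and 4 fell. Levels below are RMA values on the log2 scale in the order vehicle, 6 h, 18 h. SDF2L1, a partner of the BiP co-chaperones, read 8.74, 8.26 and 7.58 in KO/LacZ cells and 8.74, 8.44 and 7.79 in KO/eIF4B cells. It fell at each step, with no overlap between treatments: 1.31-fold at 6 h (log2 change -0.39, SE 0.08, adjusted p = 0.031, and 0.058 to 0.087 in the 2 alternatives that ended the call) and 2.08-fold at 18 h (-1.05, SE 0.08, adjusted p = 0.00056), the largest fall among the 35 at that time. DNAJB11, a J-domain co-chaperone that hands clients to BiP, read 10.47, 10.19 and 9.88 in KO/LacZ cells and 10.43, 10.23 and 9.90 in KO/eIF4B cells. Its lines lay almost on top of each other, and it fell 1.48-fold at 18 h (-0.56, SE 0.06, adjusted p = 0.0014) after -0.24 at 6 h, which missed the threshold (adjusted p = 0.057).

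On the probe set used, BiP itself had a smaller change, with unequal values in the lines. That inequality did not pass its test (shared response term, adjusted p = 1). HSPA5 read 12.05, 11.86 and 11.47 in KO/LacZ cells against 12.14, 12.19 and 11.92 in KO/eIF4B cells. It fell by 0.40 at 18 h (SE 0.10, adjusted p = 0.020), made up of -0.57 in KO/LacZ cells and -0.22 in KO/eIF4B cells. The call did not hold without the line term in the model (adjusted p = 0.13). A second HSPA5 probe set changed more at 18 h, by -0.71, and the mean of both gave -0.55. DNAJC10, a J-domain disulphide reductase, fell by 0.23 at 18 h, a call that 4 of 7 alternative settings ended with adjusted p-values up to 0.11. DNAJB9, a J-domain protein that restrains the sensor ERN1, read 8.40, 7.96 and 8.30 in KO/LacZ cells and 8.31, 7.98 and 8.04 in KO/eIF4B cells. It fell by 0.39 at 6 h (SE 0.09, adjusted p = 0.041) and then stood at -0.18 at 18 h (adjusted p = 0.13). The 6 h call ended without the filter on dim genes (0.072) and without the line term (0.089). Its 3 probe sets differed, from -0.70 to -0.08 at 6 h and from -0.64 to -0.05 at 18 h. With arrays centred, DNAJB9 did pass as lower at 18 h. DNAJC3 (-0.25) and HYOU1 (-0.09), a relative of HSP70 that exchanges BiP's nucleotide, did not pass at 18 h. DNAJC3 did pass in 4 of 7 alternatives, with -0.44 for the mean of its probe sets (adjusted p = 0.0058) and -0.35 with arrays centred (adjusted p = 0.013).

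Among the HSP90 chaperone and the secreted stress factors, MANF and CRELD2 fell, while the chaperone passed only in alternative settings. MANF, a BiP-binding factor that cells also secrete, read 10.42, 9.99 and 9.53 in KO/LacZ cells and 10.62, 10.21 and 9.84 in KO/eIF4B cells. The fall was 0.42 at 6 h (SE 0.06, adjusted p = 0.016, and 0.14 without the line term) and 0.83, or 1.78-fold, at 18 h (SE 0.06, adjusted p = 0.00062). CRELD2, a disulphide isomerase-like protein induced by ER stress, read 9.64, 9.67 and 9.35 in KO/LacZ cells and 9.72, 9.70 and 9.34 in KO/eIF4B cells. Both lines kept their level for 6 h (0.01) and lost 0.34 by 18 h (SE 0.06, adjusted p = 0.0074). HSP90B1, the HSP90 of the ER, stood at 0.08 at 6 h and -0.12 at 18 h (adjusted p = 0.42 and 0.18). With arrays centred, HSP90B1 did pass as lower at 18 h, at -0.22. Its probe set, like those used for CALR, PDIA6, OS9 and DERL3, belongs to the class that the manufacturer marks as open to cross-hybridisation with similar sequences.

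The lectin chaperones and their glucose sensor went in different directions. CALR, a soluble lectin chaperone, read 11.13, 11.24 and 10.88 in KO/LacZ cells and 11.16, 11.15 and 10.93 in KO/eIF4B cells. It fell by 0.24 at 18 h (SE 0.07, adjusted p = 0.031, and 0.059 without the filter on dim genes). CANX, its membrane-bound relative and the brightest of the 35 with a mean of 12.24, differed by 0.08 at 6 h and 0.04 at 18 h. UGGT1, which puts a glucose back on unfolded glycoproteins and so returns them to both lectins, read 8.61, 8.83 and 9.09 in KO/LacZ cells and 8.43, 8.63 and 8.88 in KO/eIF4B cells. The rise ran in parallel in the lines and reached 1.39-fold at 18 h (0.47, SE 0.06, adjusted p = 0.0022), after 0.22 at 6 h (adjusted p = 0.065). The mean of its probe sets gave a smaller rise at 18 h, 0.23 (adjusted p = 0.018).

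Of the disulphide isomerases only P4HB passed on the probe set used, while both oxidases that recharge them fell. PDIA3, PDIA4 and PDIA6 lay between -0.08 and -0.01 at 18 h on the probe sets used and none passed at either time. With the mean of its probe sets, which differed among themselves, PDIA3 stood at -0.27 and passed at 18 h (adjusted p = 0.013). The lowest of the other probe sets at 18 h was -0.27 for PDIA4 and -0.26 for PDIA6. Neither of these genes passed at 18 h in any alternative. P4HB, the classic isomerase, rose by 0.22 at 18 h (SE 0.06, adjusted p = 0.028), a call that 4 of 7 alternatives ended with adjusted p-values up to 0.21. ERO1B, one of the 2 ER oxidases, had the largest change of the 35 at 6 h. It read 6.50, 4.94 and 5.87 in KO/LacZ cells and 6.67, 5.26 and 5.71 in KO/eIF4B cells. The fall at 6 h was 2.79-fold (-1.48, SE 0.12, adjusted p = 0.0032), and at 18 h 1.74-fold (-0.79, SE 0.12, adjusted p = 0.0043), so on this probe set the gene was lowest at 6 h in both lines. A second probe set read 5.35, 4.19 and 4.40 in KO/LacZ cells and 6.23, 5.09 and 4.74 in KO/eIF4B cells, also below vehicle at both times but lower at 18 h than at 6 h in the rescued line. The levels of this second probe set lie around the 5 log2 units below which genes were not tested. The 6 h values of the probe set used, 4.94 and 5.26, lie there too. ERO1A, the more widely expressed oxidase, fell by 0.20 at 18 h only (SE 0.06, adjusted p = 0.033); 3 of 7 alternatives ended that call, and the mean of its probe sets gave a larger fall, -0.41 (adjusted p = 0.0019).

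**Figure D2:**
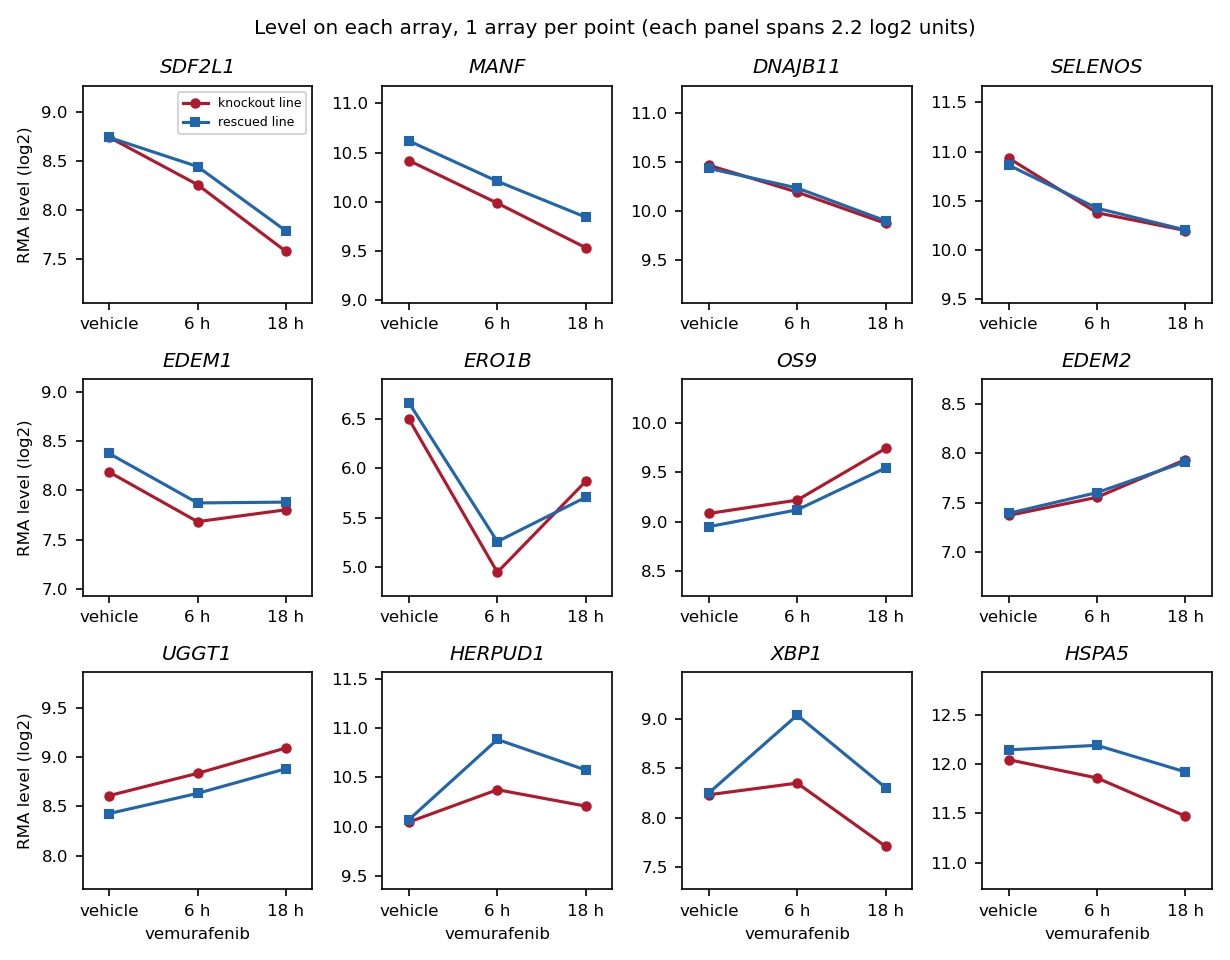
RMA level on the log2 scale for 12 ER genes under vehicle, 6 h and 18 h of vemurafenib, with 1 array per point and a span of 2.2 log2 units in every panel. SDF2L1, MANF, DNAJB11 and SELENOS step down at each time in both lines, OS9, EDEM2 and UGGT1 step up, ERO1B is lowest at 6 h, and HERPUD1, XBP1 and HSPA5 separate the lines under the drug.

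In ER-associated degradation 4 of 10 genes were higher and 2 lower at 18 h, beside 28.1% and 23.3% of all genes. SELENOS, a selenoprotein that ties the derlin channel to the extracting ATPase, read 10.94, 10.38 and 10.20 in KO/LacZ cells and 10.86, 10.43 and 10.20 in KO/eIF4B cells. Most of its fall was present at 6 h (-0.50, SE 0.06, adjusted p = 0.010), and it reached 1.62-fold at 18 h (-0.70, adjusted p = 0.00092). EDEM1, which trims mannose from misfolded glycoproteins, read 8.19, 7.68 and 7.80 in KO/LacZ cells and 8.37, 7.87 and 7.88 in KO/eIF4B cells. It was down by 0.50 at 6 h (SE 0.06, adjusted p = 0.010) and by 0.44 at 18 h (adjusted p = 0.0037), with no overlap between drug and vehicle arrays.

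The relatives of EDEM1 went the other way. EDEM2 read 7.37, 7.55 and 7.94 in KO/LacZ cells and 7.39, 7.60 and 7.92 in KO/eIF4B cells, a rise of 1.46-fold at 18 h (0.55, SE 0.06, adjusted p = 0.0015). EDEM3 read 7.89, 7.97 and 8.23 in KO/LacZ cells and 8.085, 7.996 and 8.310 in KO/eIF4B cells, 0.28 higher at 18 h (SE 0.07, adjusted p = 0.020). OS9, a lectin that delivers glycoproteins to the HRD1 ubiquitin ligase, had the largest rise at 18 h: it read 9.08, 9.22 and 9.74 in KO/LacZ cells and 8.95, 9.12 and 9.55 in KO/eIF4B cells. All 18 h arrays were above all others, by 1.55-fold against vehicle (0.63, SE 0.06, adjusted p = 0.0011). SEL1L, the adaptor that holds that ligase, read 8.23, 8.14 and 8.44 in KO/LacZ cells and 8.10, 8.22 and 8.49 in KO/eIF4B cells, a rise of 0.30 at 18 h (SE 0.08, adjusted p = 0.024). The calls for EDEM3 and SEL1L ended when arrays were centred on their medians (adjusted p = 0.11 and 0.083), that for EDEM3 also without the line term (0.051) and that for SEL1L also with the mean of its probe sets (0.071).

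HERPUD1, which recruits substrates to the ligase, was the only gene of the 35 to rise at 6 h. It read 10.05, 10.38 and 10.21 in KO/LacZ cells and 10.07, 10.89 and 10.58 in KO/eIF4B cells. The 6 h rise was 1.49-fold over both lines (0.57, SE 0.12, adjusted p = 0.039), with 0.33 in KO/LacZ cells and 0.81 in KO/eIF4B cells, and adjusted p-values of 0.062 to 0.15 in the 3 alternatives that ended the call. At 18 h it stood at 0.33 (adjusted p = 0.075). The channel genes DERL1, DERL2 and DERL3 lay between -0.13 and 0.00 at 18 h on the probe sets used, none of them past the threshold. The 4 probe sets of DERL1 ranged from -0.31 to -0.03 at 18 h, and with arrays centred DERL1 passed as lower.

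Of the sensors and transcription factors, ATF6 alone passed against vehicle. ATF6 read 8.13, 8.32 and 8.35 in KO/LacZ cells and 8.18, 8.35 and 8.54 in KO/eIF4B cells, 0.29 higher at 18 h (SE 0.07, adjusted p = 0.020, and 0.12 with arrays centred). ERN1 stood at -0.01 and 0.05 at 6 h and 18 h, and its 3 probe sets differed, from -0.09 to 0.60 at 18 h. XBP1 read 8.23, 8.35 and 7.71 in KO/LacZ cells and 8.25, 9.04 and 8.30 in KO/eIF4B cells. These 6 arrays gave 0.45 at 6 h and -0.24 at 18 h over both lines, neither past the threshold (adjusted p = 0.14 and 0.30); the spliced and unspliced forms of XBP1 were not analysed here. SEC61B of the translocation channel and the COPII coat genes SEC24D and SEC23B did not pass against vehicle at either time. In alternative settings SEC24D did pass as lower at 6 h (limma, lowest adjusted p = 0.029). SEC23B did so as higher at 18 h (lowest adjusted p = 0.035).

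From 6 h to 18 h, a contrast that leaves the vehicle arrays out, 7 of 35 genes rose and 8 fell, against 19.0% and 14.9% of all genes, 34.0% in either direction. XBP1 came down by 0.69 (SE 0.17, adjusted p = 0.032), by -0.64 in KO/LacZ cells and -0.74 in KO/eIF4B cells, though not without the line term (adjusted p = 0.13), and by 0.42 with the mean of its probe sets (adjusted p = 0.020). SDF2L1 (-0.67), MANF (-0.41), CRELD2 (-0.34), DNAJB11 (-0.33), CALR (-0.29), ERO1A (-0.28) and DNAJC10 (-0.25) were the other falls. ERO1B regained 0.69 (SE 0.12, adjusted p = 0.013), with 0.92 in KO/LacZ cells and 0.45 in KO/eIF4B cells. ERO1B rose from 6 h levels near the filter of 5 log2 units. Its second probe set changed by -0.07 over the same interval, and with the mean of both the call ended (0.31, adjusted p = 0.12). OS9 (0.48), EDEM2 (0.35), EDEM3 (0.29), SEL1L (0.28) and UGGT1 (0.25) rose further. SEC24D, which selects cargo for the coat, read 6.92, 6.58 and 7.22 in KO/LacZ cells and 7.18, 6.84 and 7.10 in KO/eIF4B cells, a rise of 0.45 from 6 h (SE 0.11, adjusted p = 0.034, and 0.054 to 0.062 in the 2 alternatives that ended the call). DNAJB11, SDF2L1, CRELD2, EDEM2 and OS9, 5 of the 15, passed in every alternative tried. With arrays centred the split was 4 higher and 13 lower, and that of all called genes went from 56.0% to 37.3% higher.

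Where a called gene had several probe sets above the brightness filter, all ran in the direction of the one used: 1 of 1 gene at 6 h, 10 of 10 at 18 h and 7 of 7 between the times. ERO1B fell outside these counts, since its second probe set averaged 4.9996 log2 units, just under the filter. From 6 h to 18 h that probe set changed by -0.07, against 0.69 on the one used.

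Set against the promoter elements, the 11 genes with an exact ERSE or ERSE-II included 5 that fell at 18 h (HSPA5, CALR, CRELD2, ERO1B and SDF2L1), 6 that did not pass and none that rose, with a median of -0.24. The 20 tested genes whose windows held neither element included all 7 that rose and 6 that fell (DNAJB11, DNAJC10, MANF, ERO1A, EDEM1 and SELENOS), with a median of -0.04. Of all genes tested, 28.1% were higher and 23.3% lower at 18 h. With arrays centred, only UGGT1, EDEM2 and OS9 among the 7 rises kept the call. Falls were therefore seen with and without an exact match in the window. The 4 tested genes without a window were all short of the threshold. All these genes share the same 6 arrays, and the difference between the classes was not tested.

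**Figure D3:**
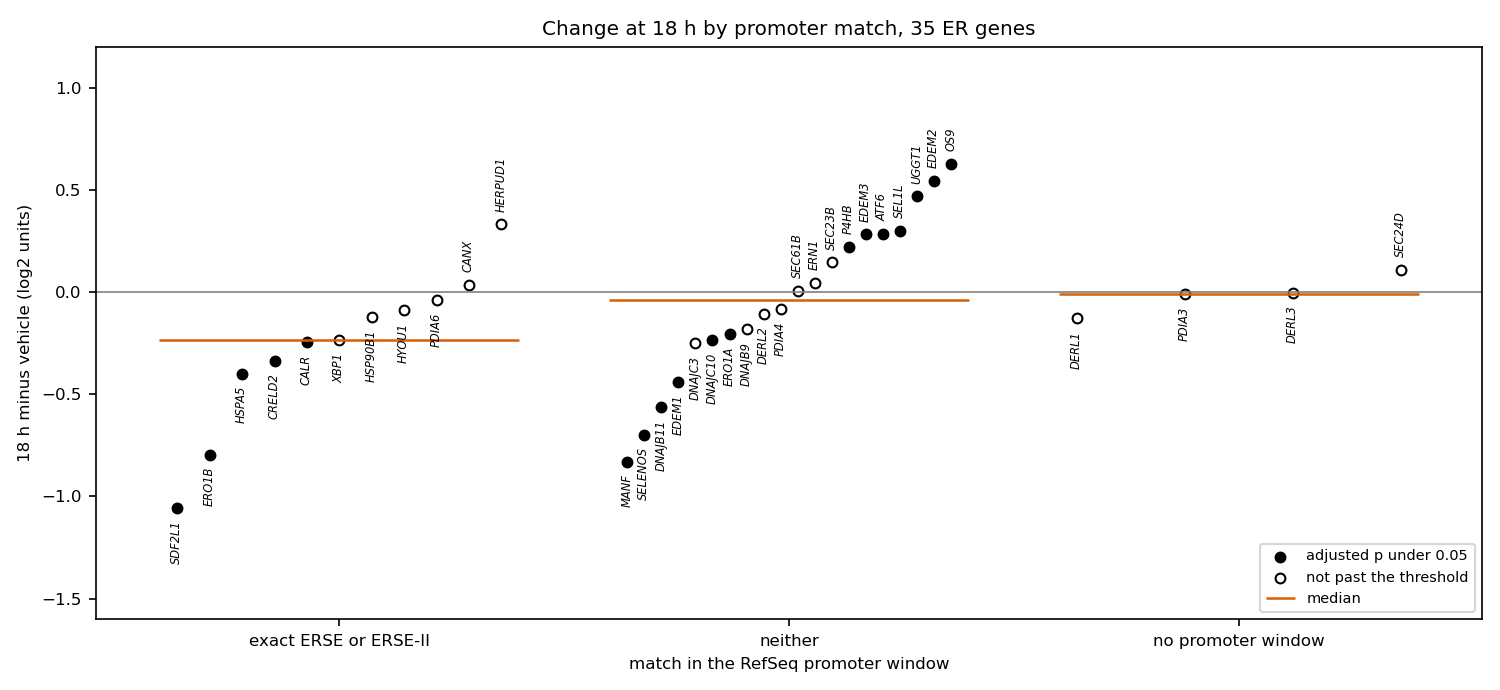
Fitted change at 18 h against vehicle, in log2 units, for the 35 ER genes by whether the RefSeq promoter window holds an exact ERSE or ERSE-II; filled points passed the adjusted threshold and orange bars are medians. The 7 genes that rose all lie in the middle class, and filled points below 0 occur in the first and middle classes.

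The comparison of the lines asks whether the loss of eIF4B changed these genes, and at the threshold used it found none. None of the 35 genes differed between knockout and rescued over the 3 treatments, against 2.50% of all genes, 1.44% higher and 1.06% lower (limma, Benjamini-Hochberg; lowest adjusted p among the 35 = 0.083). At an unadjusted p under 0.05 there were 10 of 35, or 28.6%, against 23.0% of all genes. The 95% half-width of the difference ran from 0.12 to 0.35 log2 units, before any adjustment for the number of genes. With arrays centred, the called genes overall went from 57.6% to 45.6% higher in the knockout line and the ER genes stayed at none. With an intensity trend in the prior variance, 5 genes passed: HSPA5 (-0.29), MANF (-0.24) and HSP90B1 (-0.15) lower in the knockout line, DNAJC3 (0.29) and UGGT1 (0.20) higher. MANF was lower in the knockout line in all 3 pairs of arrays, by 0.20 under vehicle, 0.22 at 6 h and 0.31 at 18 h.

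XBP1, HERPUD1 and HSPA5 had the most negative fitted differences between the lines, a set named after its values were seen. Under vehicle the lines were close, with knockout minus rescued values of -0.02, -0.02 and -0.10. Under the drug they stood apart: XBP1 differed by -0.69 at 6 h and -0.60 at 18 h, HERPUD1 by -0.51 and -0.37, and HSPA5 by -0.33 and -0.45. A response difference at a single time has no replicate array behind it. A term shared by both times, with 1 residual degree of freedom, gave -0.63 for XBP1 (SE 0.15, unadjusted p = 0.0064) and -0.41 for HERPUD1 (SE 0.15, unadjusted p = 0.037). Neither held after adjustment (adjusted p = 1 for all 35 genes), and no gene of the 13506 did; 2 of 35 (5.71%) had an unadjusted p under 0.05, against 302 genes or 2.24% overall.

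**Figure D4:**
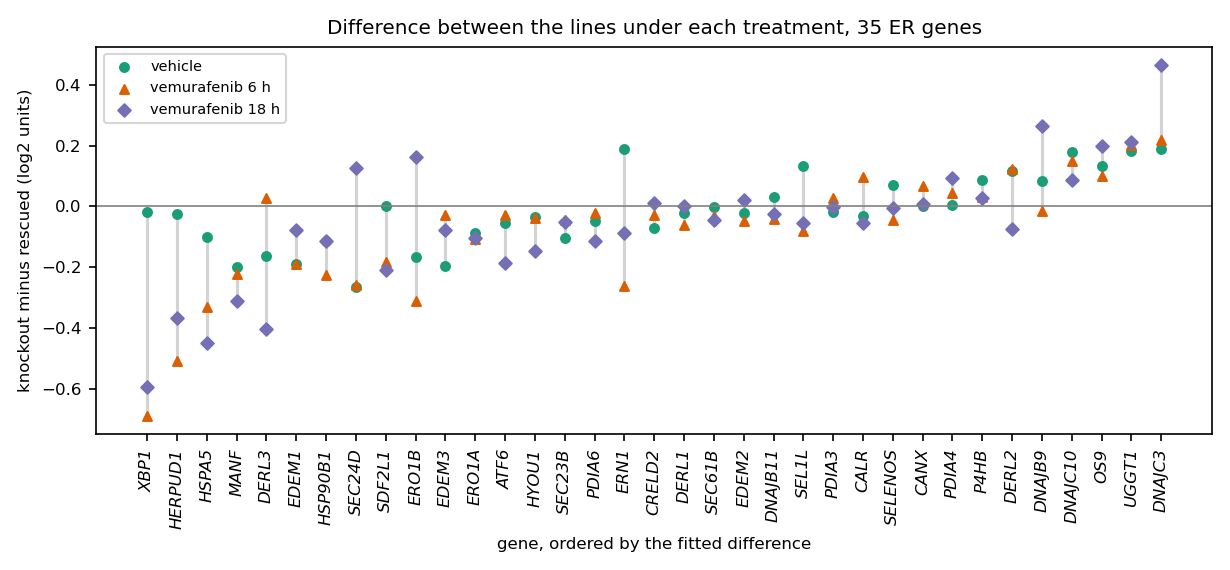
Knockout minus rescued level in log2 units for the 35 ER genes under vehicle, 6 h and 18 h of vemurafenib, 1 array against 1 per point, ordered by the fitted difference. XBP1, HERPUD1 and HSPA5 at the left lie near 0 under vehicle and between -0.69 and -0.33 under the drug.

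Other genes of the same compartment are given beside the 51.4% of all genes called at 18 h. Called shares were 36.4% for translocation, 48.0% for N-glycosylation, 53.8% for further folding enzymes, 61.9% for other degradation genes, 54.5% for COPII and 30.8% for the UPR sensors. Of 22 translocation and signal peptide genes tested, 4 rose and 4 fell at 18 h, with the signal recognition receptor subunits SRPRB (-0.53) and SRPRA (-0.46) and the channel subunit SEC61A1 (-0.29) lowest and SSR4 (0.49) and SRP14 (0.33) highest. Of 25 N-glycosylation genes, 8 rose, among them the oligosaccharyltransferase subunit DDOST (0.59), ALG6 (0.57) and glucosidase II subunit GANAB (0.47), and 4 fell, UAP1 the most at -0.92. Among 26 further folding enzymes 10 rose and 4 fell. DNAJC1, another BiP co-chaperone, rose by 1.60, the prolyl isomerases FKBP9 and PPIC by 1.29 and 0.95, and the thioredoxin-like TMX4 fell by 1.53.

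Of 21 other degradation genes, 7 rose and 6 fell at 18 h, FAM8A1, STUB1 and HERPUD2 by 1.15, 0.67 and 0.62, and UBE2G2 and AUP1, which work together in ubiquitin transfer, by -0.68 and -0.53. Among 22 COPII and ER exit genes 7 rose, KDELR3 by 0.65, and 5 fell, MCFD2 by 0.43. In the group of UPR sensors and processing factors 3 of 13 rose, ATF6B (0.58), CREB3 (0.56) and WFS1 (0.33), and NFYA, a subunit of the factor that binds CCAAT, fell by 0.57. Each of these groups had a median between -0.06 and 0.09 at 18 h, near that of all genes.

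In the list named for the PERK and ATF4 branch more genes rose than fell at both times. The activity of PERK was not measured, and what lies upstream of these genes was not tested. Of 16 genes, 8 rose and 1 fell at 6 h, with a median of 0.75, beside 7.34% and 8.82% of all genes. At 18 h, 9 rose and 1 fell, with a median of 0.64, beside 28.1% and 23.3%. CHAC1 (1.95), VLDLR (1.79) and ATF3 (1.38) led at 6 h and NUPR1 (2.60), ASNS (2.07) and CREBRF (1.22) at 18 h. These changes are fitted over both lines. From vehicle to 18 h NUPR1 went from 4.95 to 6.51 in KO/LacZ cells and from 5.15 to 8.78 in KO/eIF4B cells. ASNS went from 9.19 to 10.64 and from 9.35 to 12.03, and CREBRF from 6.22 to 7.57 and from 6.32 to 7.41. By 6 h VLDLR went from 4.91 to 5.83 and from 5.08 to 7.73. NUPR1 and VLDLR started near the filter of 5 log2 units. PPP1R15A, the phosphatase subunit that restores translation, fell at both times. Between the lines, CHAC1 and DDIT3 were lower in the knockout line by 1.25 and 0.84 (adjusted p = 0.043 and 0.031), the 2 of 16 past the threshold, beside 2.50% of all genes. The 6 h and 18 h comparisons share their vehicle arrays, so a gene's values at the 2 times are not independent.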

How the data were processed

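The deposited values were RMA probe set intensities on a linear scale, although log2 values had been planned for; they were converted to log2. RMA and the affy package are named per the submitters' processing notes; versions are not given in the sources used here. This step equalises the arrays, which hides any shift in the whole mRNA content of a cell, and the number of arrays limits the precision. Of 54675 probe sets, 41091 carry 1 symbol. The probe set with the highest mean stood for each of 19775 genes, and the 13506 whose mean reached 5 log2 units were fitted in limma 3.58.1 (R 4.3.3) with additive terms for line and treatment. The fit has 2 residual degrees of freedom, and the prior adds 3.19. P-values were adjusted by Benjamini-Hochberg over all 13506 genes, with a threshold of 0.05, and the fit was tested on simulated data. The genes, lists and tests were chosen with earlier results of these data known. Values on every array are given for the 6 highest and 6 lowest changes past the threshold in each comparison; HSPA5 was added after its values were seen. Up to 3 genes in each direction were named from other lists. Alternatives covered the filter, the probe set rule, centring, the prior, the arrays fitted and the line term. Promoters came from RefSeq.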

Additional observations from a re-analysis of the deposited data

Results flagged for a closer look

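The brightest probe set of ERN1, the IRE1 sensor, had opposite signs in the lines at both times: KO/LacZ cells gave -0.24 at 6 h and -0.09 at 18 h, KO/eIF4B cells 0.21 and 0.19. The response of the knockout minus that of the rescued line, shared by both times, was -0.3652 log2 units (limma, unadjusted p = 0.061, adjusted p = 1), so the difference did not pass. A second probe set above the brightness filter was higher than vehicle in both lines at both times, at 5.55, 5.67 and 6.20 under vehicle, 6 h and 18 h in KO/LacZ cells and 5.60, 6.03 and 6.16 in KO/eIF4B cells.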

How the results depend on the processing

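Of 40 called changes of the ER genes, 13 lost the threshold without the filter on dim genes. The number was 0 of 37 with a filter at 6 and 7 of 39 with the mean of all probe sets. The filter at 6 left ERO1B, with a mean of 5.82, untested, so its calls are outside the 37. The number lost was 7 with arrays centred, 0 with an intensity trend, 10 with only the 4 arrays compared and 17 without the line term. None changed direction. Changes short of the threshold that passed numbered 7 with a filter at 6, 13 with the mean of all probe sets, 9 with arrays centred, 18 with the trend, 2 with 4 arrays and 0 without the filter, the line term or the treatment term. The number higher at 6 h, 1 in the report, was 0 without the filter, with 4 arrays or without the line term, and 2 with a filter at 6 or the trend; the number lower, 6, was 3 without the line term. The number higher at 18 h was 3 with arrays centred. From 6 h to 18 h the number higher, 7, was 3 without the filter or the line term and 4 with the mean of probe sets, centring or 4 arrays; the number lower, 8, was 13 centred, 14 with the trend and 4 without the line term. Between the lines the trend gave 2 higher and 3 lower. Changes short of the threshold that took the other sign with the mean of probe sets were, at 6 h, PDIA3 -0.0138, DERL2 0.0189, DERL3 -0.0037, ERN1 0.1052, ERO1A -0.0726 and SEC61B -0.0032, at 18 h DERL2 0.0222 and SEC61B -0.0140, from 6 h to 18 h DERL2 0.0033, and between the lines CALR -0.0367, ATF6 0.0472, ERO1A 0.0168 and SEC23B 0.0827. With arrays centred they were, at 18 h, CANX -0.0638, ERN1 -0.0545 and SEC61B -0.0931, from 6 h to 18 h EDEM1 -0.0356 and ERN1 -0.0386, and between the lines CALR -0.0344, CANX -0.0115, PDIA3 -0.0351 and SELENOS -0.0304. The cause was not tested. No array was left out in turn, since each combination has 1. The line term already pairs the treatments within each line, and the fit without it is the unpaired one.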

Other observations

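Outside the ER genes named in the report, 33 other genes held an exact ERSE or ERSE-II in their promoter window, and 20 of them were bright enough to test. At 18 h, 6 of the 20 were higher and 4 lower than vehicle, with a median of -0.01 log2 units, beside 28.1% and 23.3% of all genes tested. SYNPO, an actin-associated protein, had the largest rise at 1.84, followed by TRIM5 (0.89) and NUCB1 (0.50). SHCBP1 fell by 1.002 and ZNF143 by 0.68. SERP1 (-0.11), FICD (-0.01), which modifies BiP, and ALG12 (0.03) did not pass. These genes were named after their values were seen.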
